A study of Mus musculus with 79 samples.

Results

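Epiblast-like cells (EpiLCs) and embryoid bodies (EBs) are 2 products of mouse embryonic stem cells, and they were compared here at day 2 (D2) in wild-type lines. The comparison used 12 of the 79 RNA-seq libraries of the series, chosen by their labels alone. They were 3 EpiLC D2 libraries of TET WT and 3 of DNMT WT, set against 3 EB D2 libraries of TET WT and 3 of DNMT WT. TET WT is the parental line from which a triple knockout of the Tet genes, Tet1, Tet2 and Tet3, was made (TET KO). DNMT WT is in the same way the parental line of DNMT KO, a triple knockout of Dnmt1, Dnmt3a and Dnmt3b. Every group started from embryonic stem cells (ESCs) kept in 2i/LIF. The ESC D0 libraries of the same lines (3 of TET WT and 2 of DNMT WT) were taken as the starting level. The same contrast was also read in the knockout lines, with 3 EpiLC D2 and 2 EB D2 libraries of each. Each genotype is 1 line, the labels do not say whether replicates were separate cultures, and the p-values therefore measure only the spread between these libraries. The labels used here give neither the EpiLC medium nor the EB medium.

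In 2i/LIF, inhibitors of MEK and GSK3 together with the cytokine LIF hold mouse ESCs in a naive state that resembles the preimplantation epiblast. EpiLCs are usually made by plating naive cells with FGF2 and Activin A, and they pass into a formative state that resembles the early postimplantation epiblast. EBs are aggregates in suspension in which cells exit the naive state and then give rise to derivatives of the germ layers. On both routes naive transcription factors such as Klf4 and Esrrb go down and formative genes such as Fgf5, Otx2 and Dnmt3b come on, while Pou5f1 and Sox2 are kept.

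Levels are given as RPKM (reads scaled to transcript length and library depth), taken back from the deposited log2 values, and changes as EpiLC D2 minus EB D2 on the scale of log2(RPKM + 0.5), with the standard error (SE). A gene was called higher or lower when limma's adjusted p was under 0.05 and the change was at least 1 on that scale. The 12 libraries held between 9.94 and 12.7 M reads by recovery from the value steps, and replicates correlated at 0.984 or above across genes. A gene without a read carries a small positive value in the deposited table, so levels under about 0.1 RPKM stand for few reads or none. Reads of mitochondrially encoded genes made up 0.135 to 0.159% of TET WT EpiLC D2 libraries and 0.449 to 0.707% of DNMT WT EpiLC D2 libraries, against 0.986 to 1.83% of TET WT EB D2 libraries and 0.967 to 1.03% of DNMT WT EB D2 libraries. In TET WT the change also moved with exon length, with a median of 0.38 in the shortest of 4 equal length classes and -0.57 in the longest, against 0.04 and -0.07 in DNMT WT. A single TET WT EB D2 library, replicate 1, had 2.31% of its reads in Gm42418, against 0.0714 to 0.16% in the other 11. The part of these features in the results was not tested, beyond the values given beside them.

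Chromosome 1 stood apart in DNMT WT. Its 641 tested genes had a median change of 0.43 in DNMT WT, where the other 19 chromosomes had medians between -0.12 and 0.03. In DNMT KO the median for chromosome 1 was 0.49, against -0.11 in TET WT and -0.28 in TET KO. Relative to the other chromosomes, chromosome 1 was higher by 0.33 to 0.35 in the DNMT WT EpiLC D2 libraries and lower in the DNMT WT EB D2 libraries, at -0.10 to -0.09. The DNMT WT ESC D0 libraries were at 0.42, and all TET WT and TET KO libraries lay between -0.16 and -0.02. In DNMT WT the EpiLC D1 libraries were at 0.33 to 0.35, and the EB D4, D6 and D8 libraries lay between -0.11 and -0.06. DNMT KO split the same way, with ESC D0 at 0.40 to 0.41 and EB D2 at -0.19 to -0.12. Whether the DNMT EBs came from the same cells as these ESC D0 libraries was not tested. In these lines the route is not separated from this chromosome 1 difference. Over both lines, 51 chromosome 1 genes were called higher and 8 lower, which is 7.96% and 1.25% of those tested there. On the other chromosomes the shares were 2.61% higher and 3.7% lower. Tested genes of chromosome 1 are therefore marked as such where they are described.

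**Figure D1:**
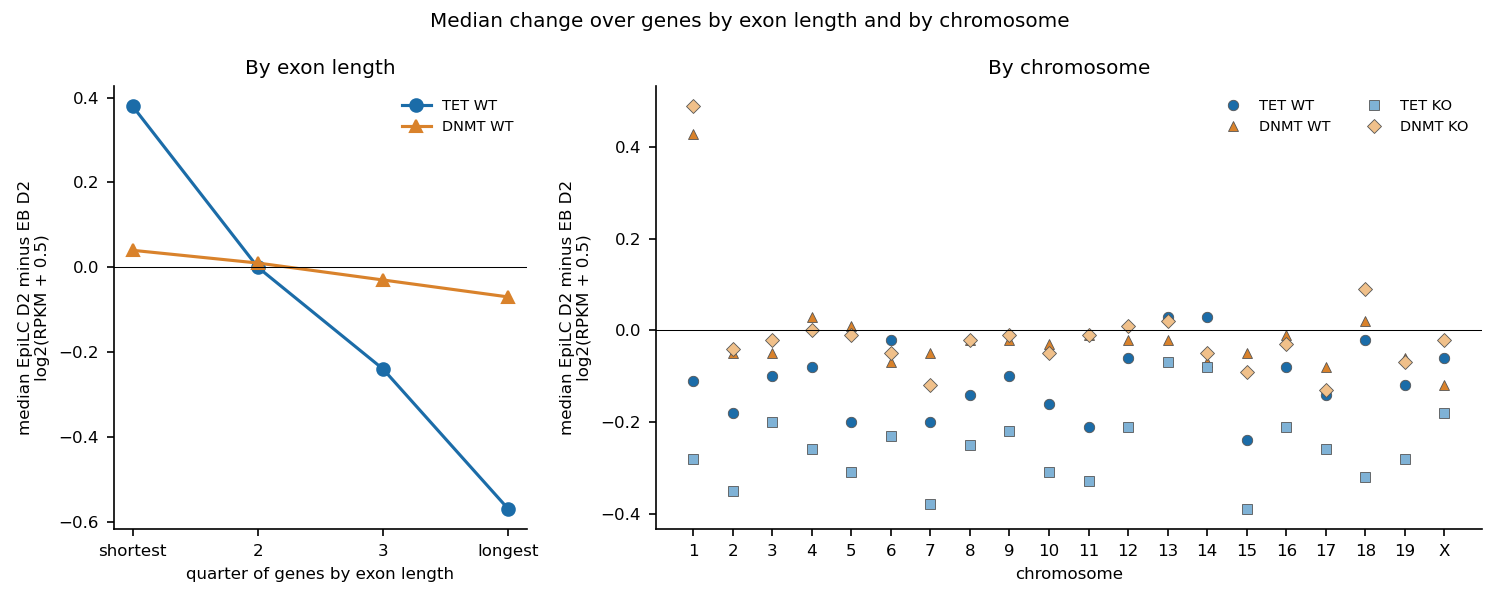
Median change of EpiLC D2 minus EB D2 (log2) by exon length, in 4 equal classes, for the wild-type lines (left), and by chromosome for the wild-type and knockout lines (right). The TET WT medians run from 0.38 in the shortest class to -0.57 in the longest, and chromosome 1 stands at 0.43 in DNMT WT.

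Over both lines, 353 of 12220 genes were higher in EpiLCs than in EBs and 436 were lower, which is 2.89% and 3.57% of the genes tested and 6.46% together. The shares higher and lower are the background for counts of list members over both lines. The median change of all genes was -0.07. Centring each library on its own median moved the split to 525 higher and 272 lower, and quantile normalization to 414 higher and 310 lower, so the balance of the directions depends on the scaling. Within TET WT 1329 genes were higher (10.9%) and 1693 lower (13.9%), with 1897 and 1034 under median centring. Within DNMT WT 380 genes were higher (3.11%) and 512 lower (4.19%), together 7.3%, where TET WT had 24.7%. Those called in the same direction in both lines numbered 84 higher and 155 lower, together 7.91% of the TET WT calls and 26.8% of the DNMT WT calls. Another 29 genes were called higher in TET WT and lower in DNMT WT, and 15 the other way round. The 6 EpiLC and 6 EB libraries did not overlap for 2004 of the 12220 genes, and genes named for the size of their change were chosen among these, so their separation was part of the choice. The root mean square change was 0.84 in TET WT and 0.55 in DNMT WT.

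**Figure D2:**
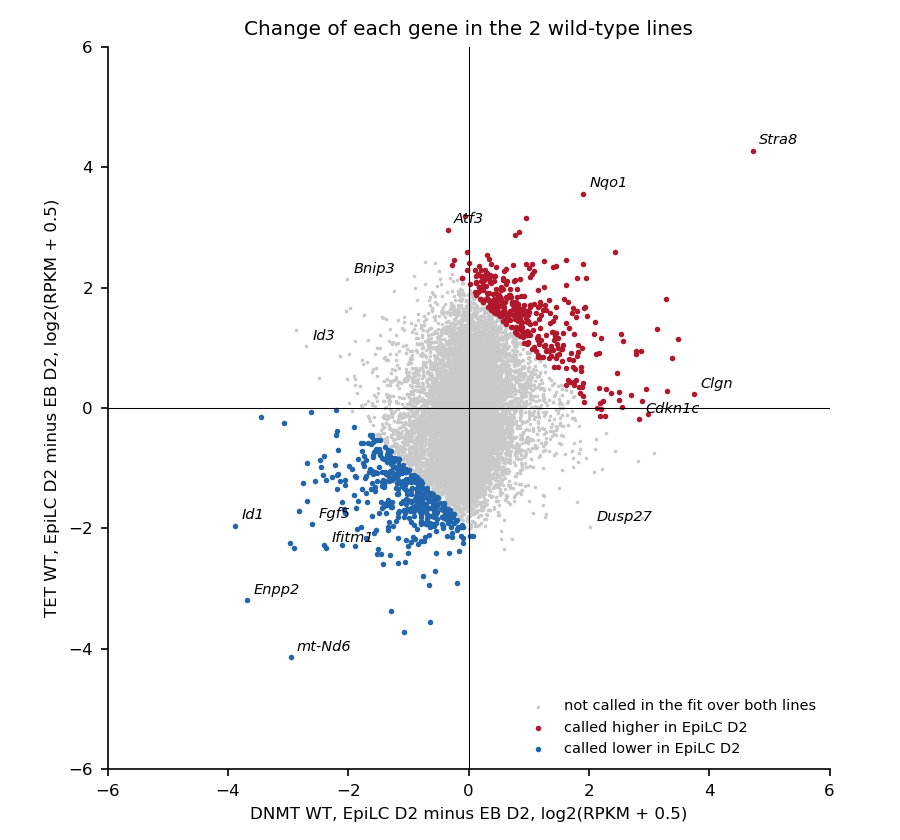
Change of EpiLC D2 minus EB D2 (log2) in TET WT (vertical) and in DNMT WT (horizontal), 1 point per tested gene, coloured where called over both lines. Stra8 lies at 4.28 in TET WT and 4.72 in DNMT WT, and Bnip3 at 2.15 in TET WT and -2.02 in DNMT WT.

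The change differed between the lines for 3017 genes (24.7% of those tested) by the test of the difference itself. Of these, 1392 had the more positive change in TET WT and 1625 in DNMT WT, with 1820 and 1190 under median centring. In the knockout lines, 367 of 12668 genes were higher in EpiLCs (2.9%) and 463 lower (3.65%), together 6.55%, and under median centring 550 and 282. Of the 789 genes called in the wild-type lines, 776 were tested in the knockout lines, and 435 were called there in the same direction (211 higher and 224 lower). The count of knockout calls behind this was 296 with a replicate block and 1335 without DNMT KO EB D2 replicate 2. Among the 776, 0 were called in the opposite direction and 774 had the same sign. The 435 are 56.1% of the wild-type calls tested there and 52.4% of all knockout calls. These are other libraries, but each knockout line derives from the wild-type line beside it, and the chromosome 1 difference is present in DNMT KO as well.

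Genes of the formative and primed epiblast were lower in EpiLCs than in EBs at day 2. Of 20 tested, 10 were lower and 0 higher, with a median of -1.01, against 436 lower and 353 higher of 12220 and a median of -0.07 over all genes. Both routes had raised these genes over ESC D0: 19 of the 20 were higher in EpiLCs, with a median of 2.13, and 18 of the 20 were higher in EBs, with a median of 3.17, where 8.51% and 8.92% of 12809 genes were called higher. These 2 comparisons share the ESC D0 libraries. In TET WT 12 of the 20 were lower and 0 higher, in DNMT WT 7 were lower and 2 higher, and the difference between the lines was called for 11. In the knockout lines 11 of the 20 were lower in EpiLCs and 0 higher, where 3.65% and 2.9% of 12668 genes were. In bulk RNA, fewer cells expressing a gene and less RNA per cell cannot be told apart.

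Fgf5, an FGF ligand used as the standard formative marker (chr5:98254184-98277030, GRCm38), was at 4.09, 5.08 and 5.87 RPKM (lowest, median and highest library) in EpiLCs, against 18.2, 26.9 and 36.8 RPKM in EBs. Every EpiLC library was below every EB library, and the change was -2.27 ± 0.13 (SE, limma adjusted p = 6.08e-07). Otx2, a homeobox factor that drives the exit from the naive state, was at 11.2, 13.8 and 16.7 RPKM in EpiLCs, against 29.4, 32.2 and 37.3 RPKM in EBs (change -1.17 ± 0.10, limma adjusted p = 8.37e-06). Its groups did not overlap either, and both lines were called, at -1.04 in TET WT and -1.30 in DNMT WT. Sox3, a SoxB1 factor of epiblast and neural progenitors, had a median of 9.25 RPKM in EpiLCs and 26.2 RPKM in EBs (change -1.49 ± 0.10, limma adjusted p = 1.64e-06). Fgf15, an FGF ligand, had medians of 5.57 RPKM in EpiLCs and 18.5 RPKM in EBs, and its change of -2.55 in TET WT was larger than the -1.05 in DNMT WT.

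The 2 remaining genes among those most used to mark this state split by line. Dnmt3b, a de novo DNA methyltransferase, was at 28.5, 124 and 216 RPKM in EpiLCs, against 162, 273 and 382 RPKM in EBs (change -1.55 ± 0.22, limma adjusted p = 0.000249). Its groups overlapped across lines: the change was -2.26 in TET WT and -0.84 in DNMT WT, where it was not called, and without the line term the adjusted p was 0.0624. Pou3f1, a POU factor of the postimplantation epiblast, was at 7.52, 33.9 and 61.9 RPKM in EpiLCs, against 37.7, 51.8 and 69.5 RPKM in EBs. Its change was -2.01 in TET WT and -0.20 in DNMT WT, and the call over both lines (-1.10 ± 0.28, limma adjusted p = 0.00644) was lost without TET WT EB D2 replicate 1 (-1.0) or TET WT EpiLC D2 replicate 1 (-0.94). It was also lost after adjustment for length and GC content (-0.68), under median centring (-0.98) and without the line term (limma adjusted p = 0.147).

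**Figure D3:**
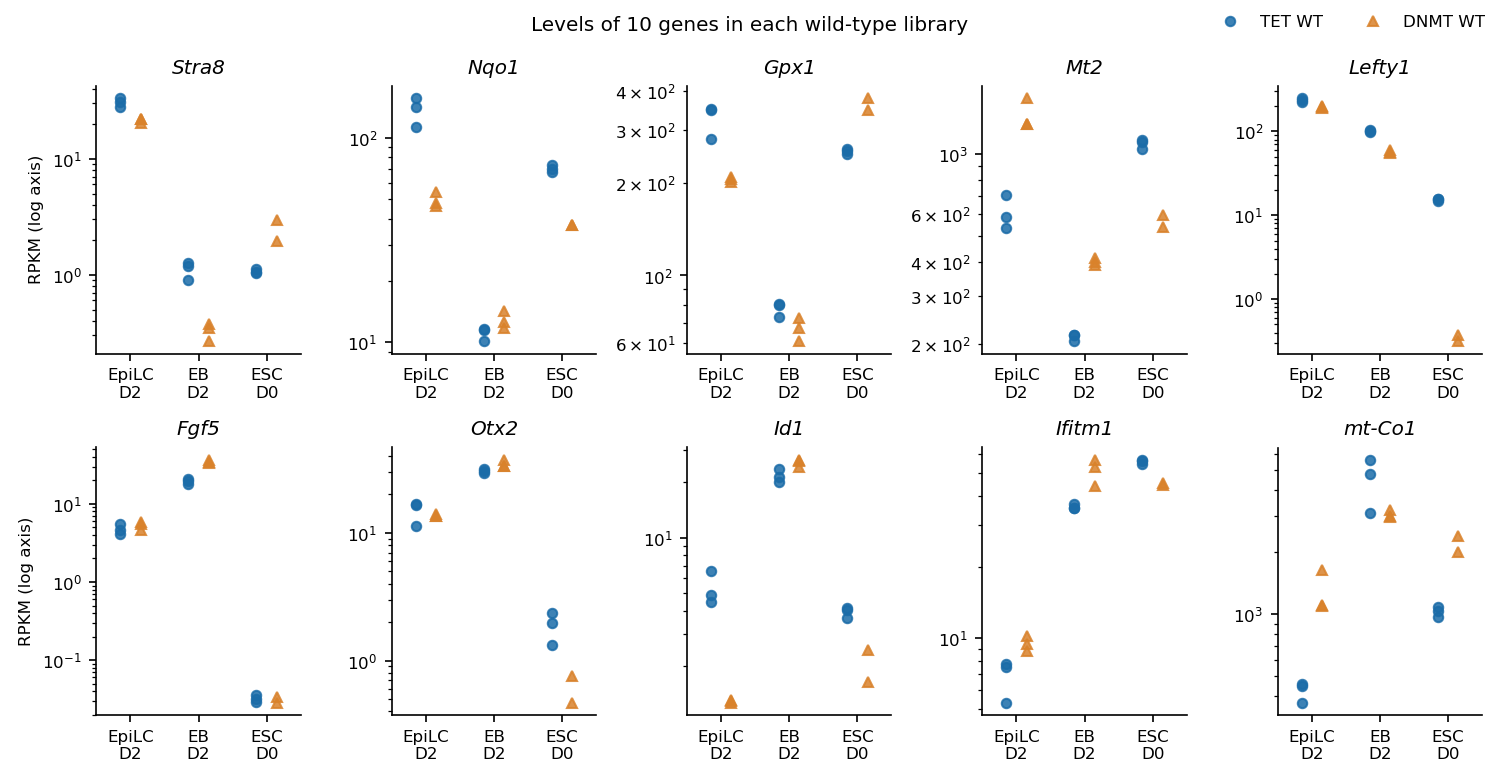
Level of 10 genes in RPKM on a log axis, 1 point per library (circles TET WT, triangles DNMT WT), in EpiLC D2, EB D2 and ESC D0. All 6 EpiLC libraries of Fgf5, Otx2 and Id1 lie below all 6 EB libraries, and all 6 of Stra8, Lefty1 and Gpx1 lie above them.

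Naive pluripotency genes had fallen on both routes by day 2. Against ESC D0, 16 of 19 tested were lower in EpiLCs, with a median of -2.84, and 15 of 19 were lower in EBs, with a median of -2.07, where 11.5% and 8.81% of 12809 genes were called lower. Against each other, 4 of the 19 were lower in EpiLCs than in EBs and 0 higher, with a median of -0.46. The lines differed, with 2 higher and 7 lower in TET WT, 1 higher and 4 lower in DNMT WT, and the difference called for 8. The summed level of the list was 5130 to 6270 RPKM in TET WT EpiLCs and 1040 to 1290 RPKM in DNMT WT EpiLCs, against 2510 to 2880 RPKM in TET WT EBs and 1460 to 1640 RPKM in DNMT WT EBs. Such a sum follows the most abundant members and need not go with the counts. The genes with medians given below lie far under it. Esrrb, an orphan nuclear receptor of the naive network, had medians of 9.47 RPKM in EpiLCs and 25.4 RPKM in EBs (change -1.20 ± 0.13, limma adjusted p = 3.89e-05), with overlapping groups, and its change was -0.87, under the fold threshold, after adjustment for length and GC content. Nr0b1, a nuclear receptor also called Dax1, had medians of 19.1 and 56.2 RPKM in EpiLCs and EBs (change -1.67 ± 0.15, limma adjusted p = 1.25e-05). Tdh, the threonine dehydrogenase on which mouse ESC metabolism depends, had medians of 29.1 RPKM in EpiLCs and 93.1 RPKM in EBs, and its groups did not overlap (change -1.61 ± 0.16, limma adjusted p = 2.52e-05). Jam2, a junctional adhesion molecule, was the fourth, at -1.43 ± 0.11 (limma adjusted p = 4.45e-06). The Jam2 call was lost without the line term (limma adjusted p = 0.201). Klf4 was at 1.80 RPKM in EpiLCs and 3.97 RPKM in EBs (medians; change -0.68 ± 0.19), and Zfp42, known as Rex1, at 88.4 RPKM in EpiLCs and 73.3 RPKM in EBs (change 0.22 ± 0.16), neither of them called.

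Of 12 general pluripotency genes limma called 0 over both lines, and their median was -0.18; at an unadjusted p under 0.05, 3 were higher and 4 lower, and voom on recovered reads called 0. Pou5f1, the gene of OCT4, was at 435, 567 and 818 RPKM in EpiLCs, against 388, 413 and 433 RPKM in EBs, a change of 0.51 ± 0.13 that stayed under the fold threshold although the groups did not overlap. Sox2 was at 69.8, 88.9 and 125 RPKM in EpiLCs, against 120, 145 and 178 RPKM in EBs, at -0.66 ± 0.09. Nanog, which naive and primed cells share, had medians of 71.0 RPKM in EpiLCs and 65.4 RPKM in EBs. Its change was 0.66 in TET WT and -0.87 in DNMT WT, and the difference between the lines was called.

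BMPs signal through SMAD1 and SMAD5 to raise the ID proteins, which block bHLH factors. Of 9 tested BMP ligands and targets, 4 were lower in EpiLCs and 0 higher, where 3.57% and 2.89% of all genes were. The median was -0.83. In TET WT 4 were lower and 1 higher, and in DNMT WT 4 were lower and 0 higher. Over all genes, 13.9% were lower in TET WT and 4.19% in DNMT WT. Id1 (chr2:152736251-152737410, GRCm38) was at 1.26, 2.88 and 6.56 RPKM in EpiLCs, against 20.1, 24.1 and 26.6 RPKM in EBs (change -2.92 ± 0.29, limma adjusted p = 2.26e-05). The groups were separate in both lines, and the change of -3.88 in DNMT WT was larger than the -1.95 in TET WT. Id2 had medians of 2.53 RPKM in EpiLCs and 7.45 RPKM in EBs (change -1.66 ± 0.18, limma adjusted p = 3.79e-05). Id4 was lower too (-1.30 ± 0.11, limma adjusted p = 6.09e-06), with medians of 0.186 RPKM in EpiLCs and 1.15 RPKM in EBs. Its call was lost at a pseudocount of 1 RPKM (-0.88), and an EpiLC level near 0.1 RPKM rests on few reads. The ligand gene Bmp4 had medians of 1.29 RPKM in EpiLCs and 4.27 RPKM in EBs (change -1.43 ± 0.20, limma adjusted p = 0.000213). Id3 went in opposite directions in the lines, at 1.03 in TET WT and -2.70 in DNMT WT. In the knockout lines 5 of the 9 were lower in EpiLCs, where 3.65% of 12668 genes were.

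Among Nodal and Activin pathway genes 2 of 15 were higher in EpiLCs and 0 lower, where 2.89% and 3.57% of all genes were. The median was -0.24. Lefty1, a secreted Nodal inhibitor that Nodal signalling itself induces, was at 189, 211 and 249 RPKM in EpiLCs, against 55.9, 78.8 and 103 RPKM in EBs (change 1.49 ± 0.10, limma adjusted p = 1.64e-06). No EpiLC library overlapped an EB library. Lefty1 lies on chromosome 1, and its change was 1.23 in TET WT, where the chromosome did not stand apart, and 1.76 in DNMT WT. The ligand gene Nodal was at 46.3, 56.8 and 76.5 RPKM in EpiLCs, against 26.4, 34.0 and 45.5 RPKM in EBs, also without overlap, and its change of 0.76 ± 0.07 (limma adjusted p = 1.01e-05) stayed under the fold threshold. Lefty2, the other LEFTY gene and also on chromosome 1, had medians of 66.9 RPKM in EpiLCs and 66.7 RPKM in EBs (change 0.07 ± 0.13), at -0.31 in TET WT and 0.46 in DNMT WT. The other called member was Inhbb, an Activin subunit gene on chromosome 1, at 1.0 ± 0.11, on the fold threshold, with 1.08 in TET WT and 0.93 in DNMT WT. It was at 0.94 to 1.0 and not called without TET WT EpiLC D2 replicate 3, DNMT WT EpiLC D2 replicate 2, TET WT EB D2 replicate 1, or DNMT WT EB D2 replicate 2 or 3. The Inhbb call was also lost at a pseudocount of 1 RPKM (0.77) and without the line term (limma adjusted p = 0.112).

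The ligand genes Fgf5, Fgf15 and Fgf8, all called lower in EpiLCs, were counted with the formative and streak genes. Of 14 further FGF ligands, receptors and ERK feedback genes, 1 was higher and 0 lower, with a median of -0.09. At an unadjusted limma p under 0.05, 4 were higher and 5 lower. The called gene was Dusp5, a phosphatase that acts on ERK, with medians of 9.69 RPKM in EpiLCs and 3.97 RPKM in EBs (change 1.15 ± 0.20, limma adjusted p = 0.000732), at 1.74 in TET WT and 0.56 in DNMT WT. Dusp6, another ERK phosphatase, was called in TET WT at 1.54 and was at -0.08 in DNMT WT, with the difference between lines called. Of 12 Wnt feedback and TCF/LEF genes, 2 were lower and 0 higher, where 3.57% and 2.89% of all genes were. The median was -0.50, with 10 of 12 negative. At an unadjusted limma p under 0.05, 6 were lower and 0 higher. Tcf7l1, a repressor of the naive network, had medians of 12.3 RPKM in EpiLCs and 30.7 RPKM in EBs (change -1.32 ± 0.20, limma adjusted p = 0.000364), at -1.92 in TET WT and -0.73 in DNMT WT, and it was at -0.98, under the fold threshold, after adjustment for length and GC content. Notum, a Wnt deacylase, was at -1.26 ± 0.13 (limma adjusted p = 2.30e-05), and its call was lost without the line term (limma adjusted p = 0.115). Axin2, the most used Wnt target, was at -1.20 in TET WT and 0.04 in DNMT WT and was not called over both. Pim1, a kinase gene induced by STAT3, was the 1 of 9 LIF and STAT3 targets called, with medians of 43.9 RPKM in EpiLCs and 17.3 RPKM in EBs (change 1.31 ± 0.10, limma adjusted p = 3.29e-06).

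Stra8 had the largest positive change among the genes named by size. Its product is induced by retinoic acid and is needed for meiosis in germ cells. It was at 20.5, 25.0 and 33.3 RPKM in EpiLCs, against 0.266, 0.636 and 1.26 RPKM in EBs (change 4.5 ± 0.11, limma adjusted p = 1.63e-10). Every EpiLC library was far above every EB library, and the change was 4.28 in TET WT, 4.72 in DNMT WT and 4.29 in the knockout lines. Its level was higher at each later EpiLC day and stayed low in EBs. In TET WT it averaged 1.07 RPKM in ESCs, 6.36 at EpiLC D1 and 30.8 at EpiLC D2, with 1.12 at EB D2 and 0.214 at EB D4. In DNMT WT these averages were 2.47, 10.7 and 21.4 RPKM, with 0.329 at EB D2 and 0.246 at EB D4. The DNMT WT EpiLC D1 averages given for Stra8 and Fgf5 rest on 2 libraries, of which 1 could be placed by its group only. Of 10 retinoic acid genes tested, 2 were higher and 0 lower, where 2.89% and 3.57% of all genes were, and the median was 0.18. The retinoic acid hydroxylase gene Cyp26a1 had medians of 0.457 RPKM in EpiLCs and 1.20 RPKM in EBs and was not called (change -0.76 ± 0.25). Because Stra8 leads the contrast, the 250 bases before its RefSeq start are shown (GRCm38.p6, chr6:34920698-34920947, plus strand), with the letters AGGTCA, the core of a nuclear receptor binding element, in capitals on either strand.
Stra8: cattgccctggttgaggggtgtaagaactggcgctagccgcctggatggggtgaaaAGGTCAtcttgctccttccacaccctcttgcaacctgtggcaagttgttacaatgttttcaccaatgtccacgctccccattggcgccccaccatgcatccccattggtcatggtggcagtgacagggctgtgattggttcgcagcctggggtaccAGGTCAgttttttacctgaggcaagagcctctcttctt
The letters occur at -194 and -38 from that start, which lies 785 bases from the 5′ end of the deposited gene, and 14% of 32851 RefSeq promoter windows of this length hold them. A match describes the sequence only.

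Genes of metal and oxidative stress were higher in EpiLCs. All 9 had a positive change; 4 were higher and 0 lower, with a median of 0.94. In TET WT 7 of 9 were higher, in DNMT WT 4 of 9, and in the knockout lines 1 of 9. Over all genes these shares were 10.9%, 3.11% and 2.9%. Nqo1, a quinone reductase gene driven by NRF2, was at 46.3, 83.5 and 156 RPKM in EpiLCs, against 10.1, 11.6 and 14.2 RPKM in EBs (change 2.74 ± 0.26, limma adjusted p = 1.37e-05). Its change was larger in TET WT (3.56) than in DNMT WT (1.91), and against ESC D0 it was 0.65 in EpiLCs and -2.09 in EBs. Mt2, one of the metallothioneins that bind zinc and copper, was at 532, 996 and 1600 RPKM in EpiLCs, against 204, 302 and 413 RPKM in EBs (change 1.65 ± 0.10, limma adjusted p = 7.34e-07). Mt1, its neighbour, was at 134, 209 and 330 RPKM in EpiLCs, against 52.4, 102 and 165 RPKM in EBs (change 1.12 ± 0.11, limma adjusted p = 2.20e-05). The groups of Mt2 were separate and those of Mt1 overlapped. Mt1 dropped under the fold threshold after adjustment for length and GC content (0.87) and under quantile normalization (0.89). Slc30a1, the zinc exporter ZnT1, was at 10.2, 10.7 and 12.8 RPKM in EpiLCs, against 4.02, 4.70 and 5.41 RPKM in EBs (change 1.19 ± 0.09, limma adjusted p = 3.21e-06). It lies on chromosome 1, and its change was 1.30 in TET WT and 1.07 in DNMT WT. Against ESC D0, Mt2, Mt1 and Slc30a1 were at 0.08, -0.35 and -0.28 in EpiLCs and at -1.57, -1.47 and -1.46 in EBs. The oxidative stress gene Hmox1, for heme oxygenase, was not called over both lines (change 0.42 ± 0.24), at -0.32 in TET WT and 1.16 in DNMT WT.

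Mt1, Mt2 and Slc30a1 are known targets of the zinc-sensing factor MTF1, and they moved together here, so the 250 bases before each RefSeq start are shown (GRCm38.p6, plus strand). Capitals mark TGCACNC or TGCGCNC on either strand, the core of a metal response element. The windows are chr8:94178839-94179088 for Mt1, chr8:94172368-94172617 for Mt2 and chr1:191906531-191906780 for Slc30a1.
Mt1: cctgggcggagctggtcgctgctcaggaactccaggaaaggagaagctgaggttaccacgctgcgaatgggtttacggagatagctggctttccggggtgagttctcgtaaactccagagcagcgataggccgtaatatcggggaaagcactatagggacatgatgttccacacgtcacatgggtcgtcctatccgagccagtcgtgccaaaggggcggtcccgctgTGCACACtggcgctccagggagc
Mt2: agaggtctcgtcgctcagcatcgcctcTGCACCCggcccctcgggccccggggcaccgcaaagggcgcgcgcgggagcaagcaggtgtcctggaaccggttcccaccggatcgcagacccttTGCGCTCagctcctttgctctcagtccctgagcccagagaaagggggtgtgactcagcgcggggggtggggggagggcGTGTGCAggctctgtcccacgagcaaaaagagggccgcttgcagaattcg
Slc30a1: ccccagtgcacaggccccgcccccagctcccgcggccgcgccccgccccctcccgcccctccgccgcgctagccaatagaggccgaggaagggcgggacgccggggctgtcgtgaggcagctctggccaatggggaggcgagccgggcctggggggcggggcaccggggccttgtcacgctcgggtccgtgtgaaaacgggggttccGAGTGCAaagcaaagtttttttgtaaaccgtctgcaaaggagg
The letters occur at -23 in Mt1, at -223, -128 and -50 in Mt2, and at -43 in Slc30a1. Of 32851 RefSeq promoter windows of this length, 21.4% hold them.

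Selenoprotein genes include glutathione peroxidases and carry a codon read as selenocysteine, and they were examined after Gpx1, Selenow and Selenoh had come up among the genes with the largest changes. Of 20 tested, 6 were higher and 0 lower, with a median of 0.60, where 2.89% of all genes were higher and 3.57% lower. The 6 include Gpx1, Selenow and Selenoh, which prompted the list, so this count is not an independent test of it. In TET WT 12 were higher and 0 lower, with a median of 1.14, where 10.9% and 13.9% of all genes were. In DNMT WT 4 were higher and 1 lower, with a median of 0.09, where 3.11% and 4.19% of all genes were. Gpx1, which reduces hydrogen peroxide (chr9:108338903-108340343, GRCm38), was at 202, 244 and 351 RPKM in EpiLCs, against 60.9, 72.9 and 80.7 RPKM in EBs (change 1.83 ± 0.10, limma adjusted p = 4.17e-07). Selenow, a small redox protein, was at 89.9, 104 and 131 RPKM in EpiLCs, against 18.2, 26.4 and 33.4 RPKM in EBs (change 2.04 ± 0.16, limma adjusted p = 3.68e-06). Neither gene overlapped between the groups. Selenoh, a nuclear selenoprotein, was at 123, 221 and 346 RPKM in EpiLCs, against 59.2, 64.9 and 72.7 RPKM in EBs (change 1.68 ± 0.19, limma adjusted p = 4.97e-05), with 2.27 in TET WT and 1.09 in DNMT WT. Against ESC D0, Gpx1, Selenow and Selenoh were at -0.17, 0.17 and 0.70 in EpiLCs and at -2.0, -1.87 and -0.98 in EBs. These transcripts are short, and short genes had the more positive changes in TET WT. After adjustment for length and GC content Gpx1 was at 1.76, Selenow at 1.90 and Selenoh at 1.39. The other 3 called were Gpx2 (1.14 ± 0.15, limma adjusted p = 0.000143), Gpx4 and Selenof, the last 2 on the fold threshold at 1.01 and 1.0. For Gpx4 and Selenof the changes were 1.82 and 1.81 in TET WT and 0.20 and 0.19 in DNMT WT, and the differences between the lines were called.

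**Figure D4:**
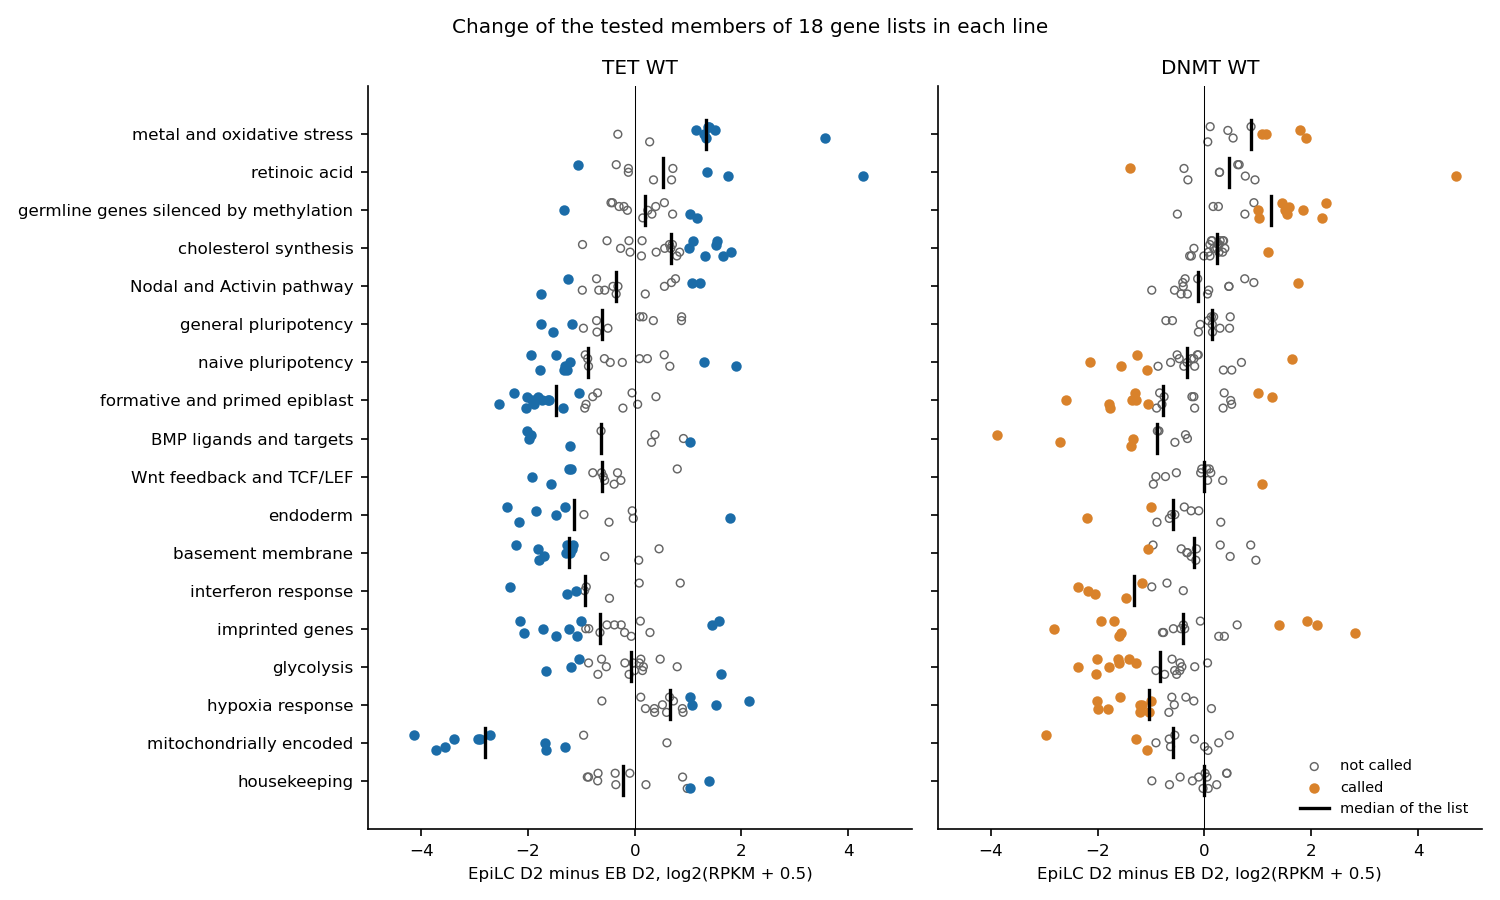
Change of EpiLC D2 minus EB D2 (log2) of the tested members of 18 gene lists in TET WT (left) and DNMT WT (right), 1 point per gene, filled where called in that line, with a bar at the list's median. The hypoxia response median stands at 0.65 in TET WT and -1.04 in DNMT WT, and the formative and primed epiblast median at -1.48 in TET WT and -0.78 in DNMT WT.

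Of 14 germline genes whose promoters are known to be silenced by DNA methylation, 2 were higher in EpiLCs and 0 lower, with a median of 0.62, and 13 of 14 had a positive change. In DNMT WT 9 of the 14 were higher, with a median of 1.24, against 2 higher and 1 lower in TET WT, with a median of 0.20. Over all genes, 3.11% were higher in DNMT WT, and in TET WT 10.9% were higher and 13.9% lower. The difference between the lines was called for 9 of the 14, against 24.7% of all genes. Mael, which acts in piRNA silencing of transposons, was at 11.9, 22.5 and 39.9 RPKM in EpiLCs, against 5.31, 6.25 and 7.69 RPKM in EBs (change 1.68 ± 0.17, limma adjusted p = 2.89e-05). Mael lies on chromosome 1, and its change was 1.16 in TET WT and 2.20 in DNMT WT. Dazl, an RNA-binding protein of germ cells, averaged 3.50 RPKM in TET WT EpiLCs and 15.1 RPKM in DNMT WT EpiLCs, against 4.90 RPKM in TET WT EBs and 2.71 RPKM in DNMT WT EBs. Stk31, a kinase gene of the testis, was the other call (1.05 ± 0.25, limma adjusted p = 0.00519), at 0.25 in TET WT and 1.85 in DNMT WT. It was lost, at 0.89 to 0.98, without DNMT WT EpiLC D2 replicate 2 or 3 or without DNMT WT EB D2 replicate 1, 2 or 3. The Stk31 call was also lost at a pseudocount of 1 RPKM (0.97) and after adjustment for length and GC content (0.85). Rec114, Nlrp4f and Rpl39l are not on the list and were named by the size of their change. Rec114, which acts in meiotic DNA breaks, had medians of 19.9 RPKM in EpiLCs and 4.40 RPKM in EBs (change 2.14 ± 0.15, limma adjusted p = 1.92e-06). Nlrp4f, an oocyte gene with close copies that can share reads, had medians of 14.7 RPKM in EpiLCs and 2.38 RPKM in EBs (change 2.51 ± 0.09, limma adjusted p = 1.41e-08). Rpl39l, a ribosomal protein gene of the testis that also has close copies, had medians of 156 RPKM in EpiLCs and 40.0 RPKM in EBs (change 2.06 ± 0.11, limma adjusted p = 2.68e-07).

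The Rhox genes are an X-linked cluster of homeobox genes expressed in germline and placenta, and they were examined after Rhox1 had come up by size. Of 6 tested, 5 were higher and 0 lower, where 2.89% and 3.57% of all genes were, and the median was 1.46. The 5 include Rhox1, which prompted the list, so this count is not an independent test of it. Rhox1 was at 5.16, 9.38 and 13.2 RPKM in EpiLCs, against 0.967, 2.36 and 3.38 RPKM in EBs (change 1.88 ± 0.29, limma adjusted p = 0.000439). Rhox5, the most abundant of them, was at 261, 363 and 492 RPKM in EpiLCs, against 55.6, 137 and 224 RPKM in EBs (change 1.64 ± 0.20, limma adjusted p = 7.06e-05). Neither overlapped between the groups. Rhox genes have close copies, so their values are uncertain where reads are shared. Among the DNA methylation enzymes, Dnmt3b, called lower over both lines, was counted with the formative genes. The list of the other enzymes gave 0 of 10 called over both lines, with a median of -0.43. At an unadjusted limma p under 0.05, 3 were lower and 0 higher, and voom on recovered reads called 0. In TET WT alone 5 of them were lower, and in DNMT WT 0. Dnmt3l, the cofactor of the de novo enzymes, averaged 60.7 RPKM in TET WT EpiLCs and 214 RPKM in DNMT WT EpiLCs, against 213 RPKM in TET WT EBs and 88.6 RPKM in DNMT WT EBs.

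Imprinted genes, which are expressed from 1 parental allele, split in both directions. Of 19 tested, 3 were higher and 5 lower, where 2.89% and 3.57% of all genes were, and the median was -0.56. Phlda2, a growth restrictor of the placenta, was at 16.6, 27.9 and 38.3 RPKM in EpiLCs, against 6.90, 7.44 and 8.31 RPKM in EBs (change 1.77 ± 0.13, limma adjusted p = 3.10e-06). Meg3, a maternally expressed long non-coding RNA, was at 1.04, 2.01 and 2.86 RPKM in EpiLCs, against 5.25, 12.8 and 23.7 RPKM in EBs (change -2.26 ± 0.19, limma adjusted p = 7.81e-06). Peg3, a paternally expressed zinc finger gene, was at 2.41, 5.82 and 7.37 RPKM in EpiLCs, against 14.4, 18 and 22.9 RPKM in EBs (change -1.82 ± 0.15, limma adjusted p = 5.92e-06). These 3 genes were separate between the groups. Snrpn, a splicing protein gene of the Prader-Willi region, had medians of 87.6 RPKM in EpiLCs and 225 RPKM in EBs (change -1.34 ± 0.10, limma adjusted p = 2.13e-06), and Ndn of the same region was lower as well (-1.47 ± 0.16, limma adjusted p = 3.79e-05). H19, a growth-related long non-coding RNA, had medians of 7.57 RPKM in EpiLCs and 26.9 RPKM in EBs (change -1.93 ± 0.14, limma adjusted p = 2.19e-06). Its call was lost without the line term (limma adjusted p = 0.0543). Against ESC D0, H19 was at 3.19 in EpiLCs and 5.12 in EBs. Cdkn1c, a cell cycle inhibitor gene, differed between the lines, with 16.4 RPKM in TET WT EpiLCs and 68.1 RPKM in DNMT WT EpiLCs, against 18.6 RPKM in TET WT EBs and 9.17 RPKM in DNMT WT EBs.

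Of 20 primitive streak and early mesoderm genes, 14 never reached 1 RPKM in the 12 libraries and 4 were tested; 1 of these was lower in EpiLCs and 0 higher. It was Fgf8, an FGF ligand of the streak, at 0.974, 1.59 and 2.81 RPKM in EpiLCs, against 4.85, 5.25 and 7.91 RPKM in EBs (change -1.52 ± 0.20, limma adjusted p = 0.000141). T, the brachyury gene, did not pass the filter, with medians of 0.146 RPKM in EpiLCs and 0.0394 RPKM in EBs. Mixl1 and Sox17, on chromosome 1, did not pass it either, and Eomes was not called (medians of 1.67 RPKM in EpiLCs and 3.06 RPKM in EBs). By EB D4, T averaged 7.40 RPKM in TET WT and 29.3 RPKM in DNMT WT. Of 20 endoderm genes 10 were tested. Among these, 4 were lower in EpiLCs and 0 higher, where 3.57% and 2.89% of all genes were, and the median was -0.91. The summed level of the endoderm list was 151 to 183 RPKM in TET WT EpiLCs and 44.8 to 51.7 RPKM in DNMT WT EpiLCs, against 177 to 188 RPKM in TET WT EBs and 189 to 209 RPKM in DNMT WT EBs. The lower genes included the endocytosis genes Cubn (-1.71 ± 0.23, limma adjusted p = 0.000142) and Dab2 (-1.53 ± 0.22, limma adjusted p = 0.000238), whose EB medians were 1.80 and 2.92 RPKM and whose EpiLC medians were 0.158 and 0.757 RPKM. The other 2 calls were less stable. Apoe, a lipid carrier (-1.11 ± 0.32, limma adjusted p = 0.0136), was at -0.03 in TET WT and -2.20 in DNMT WT. Its call was lost with no filter on low values (limma adjusted p = 0.0563), under a replicate block (limma adjusted p = 0.0699), without the line term (limma adjusted p = 0.0557), and, at -0.99 to -0.98, under median centring, the length and GC adjustment, or without DNMT WT EpiLC D2 replicate 1 or 3 or DNMT WT EB D2 replicate 1 or 3. Sox7 (-1.04 ± 0.19, limma adjusted p = 0.000958) lost its call at a pseudocount of 1 RPKM (-0.70), under median centring or quantile normalization (-0.92 and -0.91), and, at -0.99 to -0.95, without TET WT EpiLC D2 replicate 2 or 3 or TET WT EB D2 replicate 1 or 2. Gata6, which defines primitive endoderm, was not called (medians of 0.515 RPKM in EpiLCs and 0.835 RPKM in EBs). Of the neuroectoderm genes 4 were tested and limma called 0, while 2 were higher and 1 lower at an unadjusted p under 0.05 and voom on recovered reads called 1.

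Of 12 genes of blood and endothelium, 7 never reached 1 RPKM and 5 were tested. Among these, 1 was higher and 3 lower, where 2.89% and 3.57% of all genes were, and the median was -1.01. Etv2, a factor that specifies the blood and vessel lineage, had medians of 1.26 RPKM in EpiLCs and 3.92 RPKM in EBs (change -1.32 ± 0.15, limma adjusted p = 5.40e-05). The receptor gene Tek had medians of 0.589 RPKM in EpiLCs and 2.26 RPKM in EBs (change -1.41 ± 0.14, limma adjusted p = 1.96e-05). The third lower gene, Tal1, was less stable. Its call was lost at a pseudocount of 1 RPKM (-0.70), under median centring (-0.89) and under quantile normalization (-0.835). It was also lost after adjustment for length and GC content (-0.85) and without any of several single libraries, such as DNMT WT EpiLC D2 replicate 1 (-0.87). Pecam1, an adhesion gene that ESCs also express, went the other way, with medians of 11.4 RPKM in EpiLCs and 4.26 RPKM in EBs (change 1.24 ± 0.11, limma adjusted p = 1.01e-05). Of trophoblast genes 9 were tested, with 1 higher and 0 lower, and of fibroblast and mesenchyme genes 5, with 1 lower and 0 higher. These calls, Gcm1 and Thy1, were lost at a pseudocount of 1 RPKM (0.82 and -0.96). Gcm1 was also lost after adjustment for length and GC content (0.99) and without DNMT WT EpiLC D2 replicate 1 (0.99). The summed level of the blood and endothelium list was 10.2 to 12.3 RPKM in TET WT EpiLCs and 19.6 to 21.4 RPKM in DNMT WT EpiLCs, against 10.1 to 10.6 RPKM in TET WT EBs and 17.6 to 19.4 RPKM in DNMT WT EBs. Pecam1, at an EpiLC median of 11.4 RPKM, is a large part of the EpiLC sums. The sums therefore do not measure blood or endothelial cells. The part of such cells in the other differences was not tested.

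Enpp2, Has2 and Amot were among the genes with the largest negative changes. Enpp2, which makes the signalling lipid lysophosphatidic acid (chr15:54838901-54952892, GRCm38), was at 0.258, 0.491 and 1.01 RPKM in EpiLCs, against 6.75, 11.4 and 15.8 RPKM in EBs (change -3.44 ± 0.12, limma adjusted p = 5.51e-09). Has2, a hyaluronan synthase, was at 0.546, 0.975 and 1.81 RPKM in EpiLCs, against 5.10, 5.92 and 7.03 RPKM in EBs (change -2.12 ± 0.19, limma adjusted p = 9.45e-06). Amot, an angiomotin that binds YAP at cell junctions, was at 0.705, 1.37 and 1.75 RPKM in EpiLCs, against 4.83, 6.29 and 7.02 RPKM in EBs (change -1.93 ± 0.14, limma adjusted p = 2.45e-06). All 3 were lower in the knockout EpiLCs too. Against ESC D0, Enpp2 was at 0.93 in EpiLCs and 4.37 in EBs. Of 12 basement membrane genes 3 were lower and 0 higher, with a median of -0.78, and 9 of them were lower in TET WT and 1 in DNMT WT, where 13.9% and 4.19% of all genes were lower. The length and GC adjustment left Col4a1 as the 1 of the 3 still called, with Col4a2 at -0.59 and Nid1 at -0.87. Without TET WT EpiLC D2 replicate 2, Col4a2 and Nid1 were each at -0.98. Quantile normalization also left them under the fold threshold, at -0.95 for Col4a2 and -0.98 for Nid1. Col4a2 was at -0.88 at a pseudocount of 1 RPKM, and Nid1 at -0.995 under median centring. Col4a1, a collagen IV chain, had medians of 1.96 RPKM in EpiLCs and 5.92 RPKM in EBs (change -1.59 ± 0.22, limma adjusted p = 0.000199), at -2.22 in TET WT and -0.96 in DNMT WT. Of 14 adhesion genes 1 was lower and 0 higher. It was Twist1, whose call was lost at a pseudocount of 1 RPKM (-0.90), under median centring (-0.99) and under quantile normalization (-0.93). Cdh1, the gene of E-cadherin, had medians of 145 RPKM in EpiLCs and 165 RPKM in EBs (change -0.23 ± 0.09). Cyr61, a YAP and serum response target also known as Ccn1, went up instead, with medians of 7.48 RPKM in EpiLCs and 1.64 RPKM in EBs (change 1.89 ± 0.34, limma adjusted p = 0.000994), and was called in TET WT (2.93) and not in DNMT WT (0.85).

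Of 8 interferon response genes tested, 3 were lower in EpiLCs and 0 higher, where 3.57% and 2.89% of all genes were. The median was -0.96. Ifitm1, a membrane protein gene also expressed in epiblast and germ cells, was at 5.30, 8.27 and 10.2 RPKM in EpiLCs, against 35.7, 40.5 and 56.8 RPKM in EBs (change -2.35 ± 0.10, limma adjusted p = 4.27e-08). Its neighbour Ifitm3 had medians of 39.8 RPKM in EpiLCs and 115 RPKM in EBs (change -1.64 ± 0.17, limma adjusted p = 3.22e-05). Against ESC D0 both had fallen in EpiLCs, by 2.63 and by 1.87 on the log2 scale, and they were at -0.28 and -0.23 in EBs. The antiviral gene Oasl2 was the third (-1.66 ± 0.15, limma adjusted p = 1.01e-05).

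RNAs of the mitochondrial genome were lower in EpiLCs, with 8 of 12 lower and 0 higher and a median of -1.59. The change was -2.80 in TET WT and -0.60 in DNMT WT at the median. Of the 12, 9 differed between the lines, against 24.7% of all genes. mt-Co1, a subunit of cytochrome c oxidase, was at 370.0, 775 and 1630 RPKM in EpiLCs, against 2980, 3160 and 5640 RPKM in EBs (change -2.33 ± 0.34, limma adjusted p = 0.000263). The groups were separate, with -3.38 in TET WT and -1.29 in DNMT WT. The mitochondrial share of reads given above moves with these values. Nuclear long non-coding RNAs were examined after Malat1 had come up by size. Of 10 tested, 6 were lower and 0 higher, where 3.57% and 2.89% of all genes were, and the median was -1.56. The 6 include Malat1, so this count is not an independent test of the list. Malat1 was at 2.15, 7.02 and 11.2 RPKM in EpiLCs, against 20.4, 25.9 and 29.5 RPKM in EBs (change -1.98 ± 0.23, limma adjusted p = 5.42e-05), and Neat1, the RNA of paraspeckles, was lower with it (-1.68 ± 0.15, limma adjusted p = 1.01e-05).

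Glycolysis genes were lower in EpiLCs in DNMT WT. All 18 had a negative change over both lines, 3 were lower and 0 higher, and the median was -0.63. In DNMT WT 8 of 18 were lower, with a median of -0.83, against 3 lower and 1 higher in TET WT, with a median of -0.07, and the difference was called for 9. Over all genes, 4.19% were lower in DNMT WT, 13.9% were lower and 10.9% higher in TET WT, and the difference was called for 24.7%. Pfkp, a phosphofructokinase, was at 3.16, 5.32 and 14.2 RPKM in EpiLCs, against 18.6, 21.5 and 23.6 RPKM in EBs (change -1.78 ± 0.21, limma adjusted p = 7.33e-05). Its paralog Pfkl had medians of 26.3 RPKM in EpiLCs and 67.4 RPKM in EBs (change -1.34 ± 0.15, limma adjusted p = 4.97e-05), and was at -0.90 after adjustment for length and GC content. Both were separate between the groups. Hk2, a hexokinase, was at -1.11 ± 0.20 (limma adjusted p = 0.000973) and lost the call without TET WT EpiLC D2 replicate 1 (-0.98). It was also lost under median centring (-0.99) and after adjustment for length and GC content (-0.88). Ldha, for lactate dehydrogenase, was called in DNMT WT at -1.29 and was at -0.03 in TET WT.

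Hypoxia response genes moved in opposite directions in the 2 lines. Over both lines limma called 0 of 15, and the median was -0.15; at an unadjusted p under 0.05 there was 1, and voom on recovered reads called 0. In TET WT 4 were higher and 0 lower, with a median of 0.65, where 10.9% and 13.9% of all genes were. In DNMT WT 0 were higher and 9 lower, with a median of -1.04, where 3.11% and 4.19% of all genes were. The difference between the lines was called for 12 of the 15, all with the more positive change in TET WT. Over all genes the difference was called for 24.7%. Hypoxia response genes are induced by HIF1 when oxygen is low. Bnip3, a mitophagy receptor, averaged 249 ± 77.9 RPKM in TET WT EpiLCs and 16.1 ± 1.11 RPKM in DNMT WT EpiLCs, against 53.8 ± 2.57 RPKM in TET WT EBs and 66.5 ± 0.494 RPKM in DNMT WT EBs (SD, n = 3 each). The difference between the changes was 4.17 ± 0.24 (SE, limma adjusted p = 4.42e-08). Its change against EBs was 2.15 in TET WT and -2.02 in DNMT WT.

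In the knockout lines, too, the EpiLC level of Bnip3 was high beside EBs in TET KO and low in DNMT KO. It averaged 323 RPKM in TET KO EpiLCs and 28.5 RPKM in DNMT KO EpiLCs, against 81.4 RPKM in TET KO EBs and 57.3 RPKM in DNMT KO EBs. Pdk1, a kinase that keeps pyruvate out of mitochondria, averaged 83.1 RPKM in TET WT EpiLCs and 17.7 RPKM in DNMT WT EpiLCs, against 39.0 RPKM in TET WT EBs and 40.2 RPKM in DNMT WT EBs. In the knockouts Pdk1 averaged 72.2 RPKM in TET KO EpiLCs and 24.7 RPKM in DNMT KO EpiLCs, against 56.8 RPKM in TET KO EBs and 45.7 RPKM in DNMT KO EBs. Ddit4, an inhibitor of mTOR signalling, averaged 91.0 RPKM in TET WT EpiLCs and 24.4 RPKM in DNMT WT EpiLCs, against 47.6 RPKM in TET WT EBs and 96.5 RPKM in DNMT WT EBs. The stress factor gene Atf3, on chromosome 1, averaged 9.22 RPKM in TET WT EpiLCs and 0.437 RPKM in DNMT WT EpiLCs, against 0.755 RPKM in TET WT EBs and 0.685 RPKM in DNMT WT EBs. In these genes the ratio between the lines was larger in EpiLCs than in EBs. The labels do not say whether the lines were cultured together, so the line and its cultures cannot be told apart.

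**Figure D5:**
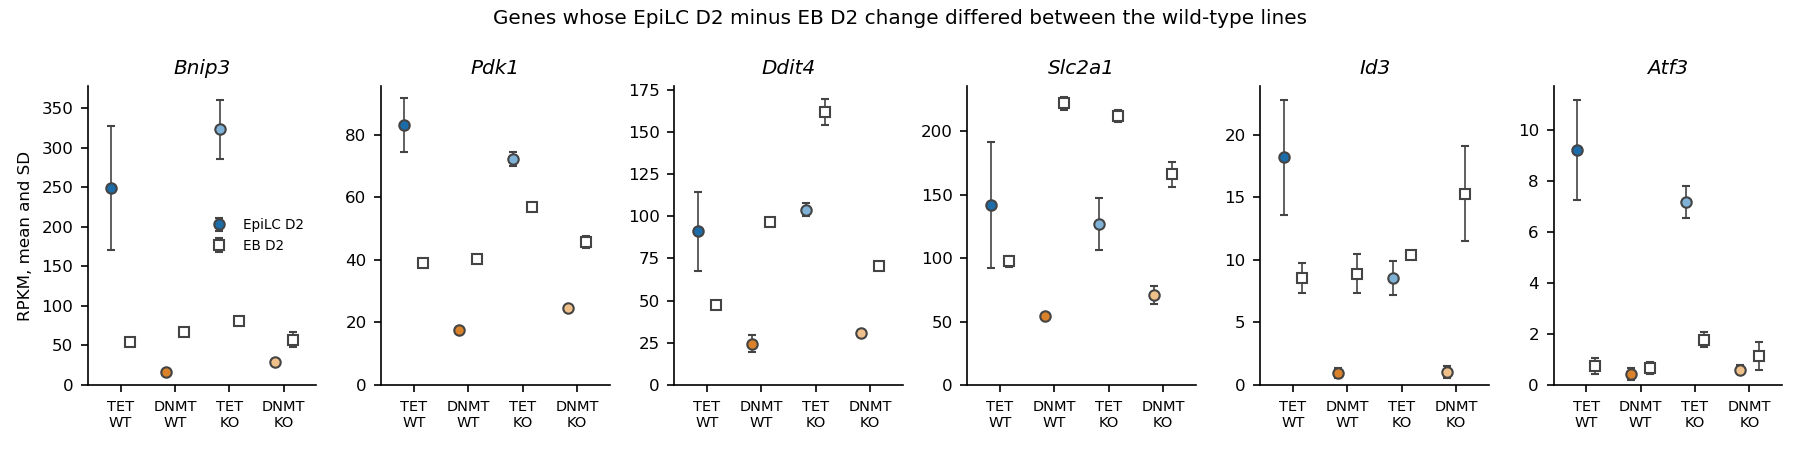
Level in RPKM (mean ± SD over libraries; filled circles EpiLC D2, open squares EB D2) of Bnip3, Pdk1, Ddit4, Slc2a1, Id3 and Atf3 in the 4 lines. Bnip3 averages 249 RPKM in TET WT EpiLCs and 16.1 RPKM in DNMT WT EpiLCs, against 53.8 RPKM in TET WT EBs and 66.5 RPKM in DNMT WT EBs.

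Bnip3 is a known HIF1 target and leads the difference between the lines, so the 250 bases before its RefSeq start are shown (GRCm38.p6, chr7:138909507-138909756, minus strand), with ACGTG on either strand, the core of a hypoxia response element, in capitals.
Bnip3: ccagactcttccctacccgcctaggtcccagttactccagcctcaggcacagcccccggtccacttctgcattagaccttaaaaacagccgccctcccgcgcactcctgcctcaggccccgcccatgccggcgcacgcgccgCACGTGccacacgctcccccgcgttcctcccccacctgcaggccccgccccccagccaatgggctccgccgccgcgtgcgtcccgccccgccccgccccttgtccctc
The letters occur on both strands, overlapping in CACGTG at -108, and 16.6% of 32851 RefSeq promoter windows of this length hold them.

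Other genes separated the lines in the opposite sense. Clgn, a chaperone of sperm development, averaged 2.90 RPKM in TET WT EpiLCs and 36.0 RPKM in DNMT WT EpiLCs, against 2.27 RPKM in TET WT EBs and 2.24 RPKM in DNMT WT EBs. Its change was 0.23 in TET WT and 3.75 in DNMT WT. Neurog3, a bHLH factor of endocrine and germ cells, was at -0.88 in TET WT and 2.81 in DNMT WT, and Ccno, a cyclin of multiciliated cells, at -1.56 in TET WT and 1.79 in DNMT WT. Fgf5 in TET WT averaged 0.0323 RPKM in ESCs, 0.574 at EpiLC D1 and 4.76 at EpiLC D2, with 19.5 at EB D2 and 57.5 at EB D4. In DNMT WT the Fgf5 averages were 0.0311, 0.554 and 5.34 RPKM, with 34.8 at EB D2 and 69.9 at EB D4. Fgf5 was thus present in both products and at the higher level in EBs of both lines.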

How the data were processed

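The labels describe RNA from column kits treated with DNase and stranded, oligo-dT-primed libraries. Trimming used Trim Galore 0.6.1 with cutadapt 1.18, and alignment to GRCm38 used HISAT2 2.1.0, per the submitters' processing notes. How reads were counted, and on which annotation, is not stated there. A single table with log2 RPKM of 35269 entries in 79 libraries was deposited, and the log base was taken from the table's name. Whether the counting used strand is not given, so reads of a gene and an antisense partner cannot be told apart.

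From this table, values were taken back to RPKM, a pseudocount of 0.5 RPKM was added, and entries with at least 1 RPKM in at least 2 libraries were tested on the log2 scale with limma 3.58.1 (trend and robust settings) in R 4.3.3, with Benjamini-Hochberg adjustment over all entries tested. The line was a covariate. The change within each line came from a joint fit of all 12 libraries, in which the groups shared an estimate of the spread. The difference between the changes was tested as an interaction in that fit. Whole reads were recovered from the value steps for about 97% of values, which gave the depth. The fit was also tested on simulated data. The gene lists, members and named genes were chosen with earlier results of these data known. Genes were named by size among separated, called genes, by list, by the line difference, and from a fixed set of marker genes; other genes in the text were chosen after their values were seen (Gpx2, Gpx4, Selenof, Rhox5, Neat1, Pdk1, Ddit4, Ldha, Dusp6, Lefty2, Dazl, Dnmt3l, Cdkn1c, Cdh1, Cyp26a1 and Hmox1). Promoter sequences came from RefSeq on GRCm38.p6. Figures were drawn with matplotlib 3.10.9. Alternatives tried are given in the closing section.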

Additional observations from a re-analysis of the deposited data

Results flagged for a closer look

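The change of EpiLC D2 relative to EB D2 differed between TET WT and DNMT WT for 3017 genes by the interaction test, and each gene given here is among them. Values are the TET WT change minus the DNMT WT change on the log2 scale, so a positive value means a more positive change in TET WT. Among genes called over both lines, the difference was 1.65 for Nqo1, 2.08 for Cyr61, 1.18 for Selenoh, 1.93 for Id1, 1.11 for Meg3 and 1.14 for Has2. It was -1.47 for Eprn, -1.29 for Rhox1, -1.04 for Mael on chromosome 1, -1.17 for Aire, -1.42 for Dnmt3b and -1.81 for Pou3f1. For mitochondrially encoded genes it was -1.18 for mt-Nd6, -2.65 for mt-Nd5, -2.09 for mt-Co1 and -2.92 for mt-Nd4. The largest positive differences by the naming rule were 4.17 for Bnip3, 4.16 for Ndufa4l2, 3.72 for Id3, 3.64 for Aldoc and 3.64 for Ndrg2. The largest negative ones were -4.00 for Dusp27 on chromosome 1 (-1.98 in TET WT), -3.82 for Cyp2b23, -3.69 for Neurog3, -3.52 for Clgn and -3.36 for Ccno. Among the fixed markers the difference was 1.53 for Nanog and -1.24 for Axin2. The transcript length, mitochondrial share and chromosome 1 values given with the data also differ between the lines, and their part in these differences was not tested.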

How the results depend on the processing

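Over 24 alternative settings, 108 named values gave 104 lost calls in 26 of them and 2444 results on the same side, with 0 reversed. The count over both lines was 1350 at a pseudocount of 0.1 RPKM, 477 at 1 RPKM, 504 with at least 5 RPKM required and 1553 by voom on recovered reads. For DNMT WT it was 1348, 554 and 419 under the first 3 of these settings. The knockout count was 520 at 1 RPKM, and with at least 5 RPKM it was 501, while EpiLC D2 against ESC D0 gave 1650 and EB D2 against ESC D0 gave 1335. The added adjustment for length and GC content, chosen after seeing the data, gave 1912 calls in TET WT (1014 higher and 898 lower) and 564 over both lines; 1489 of the 3022 TET WT calls and 444 of the 789 over both lines were kept, and 4 of the 3022 changed sign. Leaving out 1 library gave 646 to 958 calls over both lines, 2562 to 3511 in TET WT, 891 to 924 in DNMT WT, 2673 to 3335 for the difference, 2381 to 2737 for EpiLC D2 against ESC D0, 2181 to 2318 for EB D2 against ESC D0 and 679 to 1335 in the knockout lines, with 1335 without DNMT KO EB D2 replicate 2. The labels do not say whether same-numbered libraries belong together, and their deviations from the group means correlated at -0.03 to 0.04. In TET WT the same-numbered pairs were at 0.026 to 0.037 and the other pairs at -0.026 to -0.005. In DNMT WT the same-numbered pairs were at -0.032 to 0.002 and the other pairs at -0.027 to 0.030. These values do not settle whether the numbers mark pairs. With a replicate block the counts were 738 over both lines, 3022, 894 and 3026 for the lines and their difference, and 296 in the knockout lines, where 293 of 830 calls were kept. The cause of these differences was not tested. Levels near 0.1 RPKM rest on few reads, which limits low genes.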

Other observations

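Of 21 cholesterol synthesis genes 2 were higher in EpiLCs than in EBs and 0 lower, with a median of 0.45. Of 14 genes of the amino acid and ER stress response 2 were higher and 0 lower, with a median of 0.35. In TET WT 7 of 21 cholesterol genes and 4 of 14 stress genes were higher, and in DNMT WT 1 and 0, where 10.9% of all genes were higher in TET WT and 3.11% in DNMT WT. Insig1, which restrains sterol synthesis, had medians of 86.2 RPKM in EpiLCs and 38.6 RPKM in EBs, at 1.80 in TET WT and 0.34 in DNMT WT. Its change over both lines, 1.07, was under the fold threshold without TET WT EB D2 replicate 1 (0.95), TET WT EpiLC D2 replicate 1 (0.97) or TET WT EpiLC D2 replicate 3 (0.99). Quantile normalization also left Insig1 under the fold threshold (0.84). The other call among the cholesterol genes, Hsd17b7 on chromosome 1 (1.02), was lost at a pseudocount of 1 RPKM (0.95), after the length and GC adjustment (1.0), without DNMT WT EpiLC D2 replicate 1 (0.97) and without DNMT WT EB D2 replicate 1 (1.0) or 2 (0.97). The stress call Atf3 on chromosome 1 (1.31, limma adjusted p = 0.0479) was lost under a replicate block (limma adjusted p = 0.134), at a pseudocount of 0.1 RPKM (limma adjusted p = 0.0768) and without any 1 of the 6 TET WT libraries (limma adjusted p from 0.0983 to 0.109). Phgdh, the first enzyme of serine synthesis, had medians of 134 RPKM in EpiLCs and 57.4 RPKM in EBs (change 1.26, limma adjusted p = 0.00196), at 2.1 in TET WT and 0.42 in DNMT WT.

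Of 12 p53 targets 1 was lower and 0 higher, where 3.57% and 2.89% of all genes were, and the median was -0.32. It was Zmat3, with medians of 6.05 RPKM in EpiLCs and 13.9 RPKM in EBs (change -1.28, limma adjusted p = 0.00042). Of 15 cell cycle genes 1 was higher and 1 lower, with a median of -0.02. The higher gene, Cdkn2a, was under the fold threshold under quantile normalization (0.998) and without TET WT EB D2 replicate 1 (0.915) or TET WT EpiLC D2 replicate 1 (0.932) or 3 (0.983). The lower gene, Ccnd2, lost its call at a pseudocount of 1 RPKM (-0.82) and under median centring (-0.935) or quantile normalization (-0.87). It was also lost after adjustment for length and GC content (-0.83) and without the line term (limma adjusted p = 0.183).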
